A study of Danio rerio with 12 samples.

Results

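CCCGGG sites that were methylated on 70 to under 90% of their reads were examined in pools of zebrafish embryos (Danio rerio) with and without arsenite. A site entered when its reads, summed over the 12 libraries, came to 240 or more, when its pooled level lay in that range, and when 1 or 2 other listed sites lay within 1000 bp. Chromosome 4 from position 27000000 onward was left out. The rule kept 323 of the 64466 listed sites (0.501%), and these took between 9.54% and 10.6% of the reads of a library. The share of reads is high by the choice itself, since the rule asks for a minimum of reads. The sites were chosen by their pooled level over all 12 libraries, so the levels themselves are a description and were not tested.

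Every pool was taken at 72 hours post fertilisation and, per the labels, held 20 embryos of a wild-type import bred in the submitters' laboratory. The 4 control pools were not exposed, 4 pools received sodium arsenite at 0.1 mM for 72 hours, and 4 received it at 1 mM for 72 hours. The labels do not say whether the pools of a group came from separate spawns, and they speak of triplicate units in the exposure protocol where the design has quadruplicates. The p-values therefore set a difference of groups against a spread between pools that may be technical. That spread was estimated from all 12 libraries together and in part from the other tested sites, not from the 4 pools of a group alone. Libraries held 1425613 to 1822127 reads at listed sites, with 1425613 to 1666841 in controls, 1485862 to 1822127 at 0.1 mM and 1491247 to 1700854 at 1 mM. Whole embryos mix all cell types, so an intermediate level cannot be told apart as a mixture of cells, of alleles or of animals.

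DNA methylation in vertebrates is the addition of a methyl group to cytosine, mostly in CG pairs, and it is copied to the new strand after replication by the maintenance methyltransferase Dnmt1. Most CG pairs of a fish genome are methylated, while many promoters rich in CG are not, and levels between these states are the exception. Arsenite is itself methylated in many animals by the enzyme As3mt, which draws on S-adenosylmethionine, the methyl donor that DNA methyltransferases also use. The study's design asks whether exposure of the embryo alters the level at single sites.

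Each site is the palindrome CCCGGG, whose central CG is the measured pair. SmaI cuts only the unmethylated site and leaves fragment ends that begin with GGG, and XmaI then cuts the methylated site and leaves ends that begin with CCGGG. The level is the share of CCGGG reads among all reads of the site. Positions are those of danRer7, the build in the submitters' processing notes. Gene, exon and promoter annotation of that build and the flanking bases were not used here.

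Within the range, levels leaned toward the upper limit. Of the 323 sites, 47 lay at 70 to under 75%, 48 at 75 to under 80%, 89 at 80 to under 85% and 139 at 85 to under 90%, with a median of 84.4%. The limits cut through a continuum. The lowest sites inside were chromosome 3 position 10859228 at 70.02% and chromosome 19 position 44494275 at 70.05%, and the nearest ones outside were at 69.77% and 69.65%, both on chromosome 18. The highest inside were chromosome 5 position 40442805 at 89.98% and chromosome 7 position 3888058 at 89.92%, with 90.05% and 90.06% just outside, on chromosomes 21 and 14.

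The sites were 14.5% of the 2227 listed sites that met the same conditions on reads, neighbours and chromosome 4. That share was between 6.41% on chromosome 20 (5 of 78, 95% Wilson interval 2.77 to 14.1%) and 23.1% on chromosome 15 (21 of 91, 15.6 to 32.7%). These are the extremes of 25 chromosomes, and neighbouring sites are not independent. Of the mostly methylated sites, 79 (24.5%) lay in the first or last 10% of a chromosome, measured up to its last listed position, against 667 (29.95%) of the 2227 sites. With each chromosome given equal weight, the mean shares were closer, 27.4% and 30.2%. Neither difference was tested. Most had 1 neighbour (270 sites) and 53 had 2. The nearest listed site lay at a median of 233 bp, close to the 228 bp of the 2227 sites.

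Depth varied widely between sites. The median site had 247 reads per library, and the range of these medians was 19 to 2135.5. A minimum of 20 reads in each of the 12 libraries left 271 sites for analysis, with a median of 392.5 reads, and 52 were not analysed. All 271 had at least 1 methylated and 1 unmethylated read and were tested. At chromosome 8 position 9064613, the site with most reads (1831 to 2492 per library), the level was between 85.1% and 87.7% in all 12 libraries. The site with the next highest total, chromosome 11 position 21966278, was between 67.8% and 73.3%. Single-library values at these sites had 95% Wilson intervals of at most ±1.57 and ±2.12 points, which cover counting error only. Chromosome 6 position 3520427 lay between 81.7% and 86.3%, chromosome 7 position 67652532 between 85.8% and 89.3%, chromosome 1 position 52553907 between 85.5% and 88.8%, and chromosome 2 position 51883511 between 79.5% and 84.6%. At these 6 sites the intermediate level was present in every pool.

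Nearly all single-library values of the 271 sites were on the methylated side. In 270 of the 271 sites every library was above 50%. This follows largely from the rule, which asked for a pooled level of 70 to under 90% over these same libraries. The lowest single value was 45.7%. The level stayed from 70 to under 90% in each of the 12 libraries at 120 sites, was at 70% or more in each at 217 and under 90% in each at 165. The range over the 12 libraries had a median of 8.63 points. Pearson's r of the 271 levels between 2 libraries was 0.610 to 0.797 over the 66 pairs of libraries, as a description across sites chosen for a narrow range of level.

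Mean methylation of the 271 sites was close in the 3 groups. In controls it was 82.2%, 84.1%, 81.9% and 82.4% in libraries 1 to 4, at 0.1 mM 82.4%, 81.6%, 83.2% and 82.7%, and at 1 mM 82.7%, 82.7%, 82.4% and 83.5%. The values of all groups overlapped, and control library 2 was the highest of the 12. Averaged over 4 pools, controls had 82.7% ± 0.983 (SD), the lower dose 82.5% ± 0.654 and the higher dose 82.8% ± 0.478. Relative to control the higher dose differed by 0.161 points and the lower by -0.175 points, and 1 mM minus 0.1 mM gave 0.336 points, each smaller than the pooled SD of the libraries (0.773, 0.835 and 0.573). Over all 2286 analysed sites the same differences were 0.133, -0.018 and 0.150 points. Leaving out control library 2 turned the difference of 0.1 mM to 0.308 points and brought that of 1 mM to 0.643 points.

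**Figure D1:**
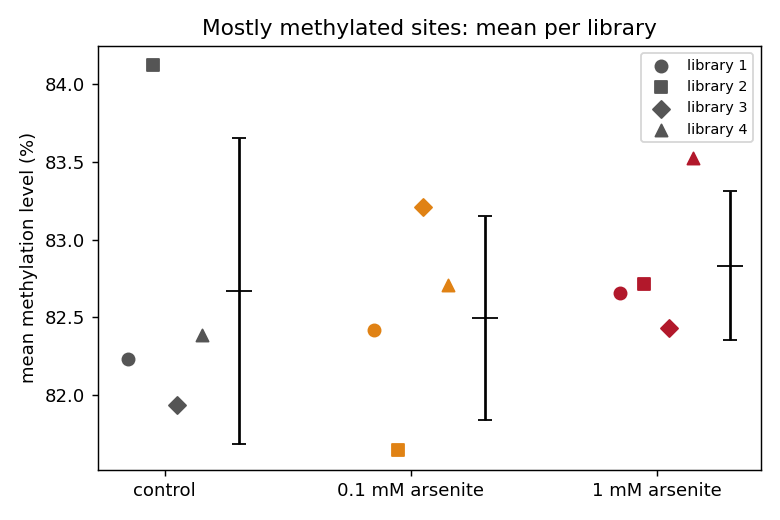
Mean methylation level (%) of the 271 analysed sites in each library, by group, with the group mean and SD (n = 4) beside the points; the axis does not start at 0. Control library 2 stands highest at 84.1%, and the other libraries lie between 81.6% and 83.5%.

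Control library 2 was high at many sites, not at a few. It was the highest of the 4 controls at 129 of the 271 sites (47.6%) and the lowest at 26. The corresponding count of highest levels was 60, 40 and 42 for control libraries 1, 3 and 4. Library 3 at 0.1 mM was the highest of its group at 38.0% of sites and library 4 at 1 mM at 36.2%. The same libraries also had the highest mean level of their groups at the 195 analysed sites of 10 to under 70% with 1 or 2 neighbours. Their mean levels there were 48.9%, 47.9% and 48.5%. At the 1225 sites of 90% or more their mean levels were 97.1%, 97.2% and 97.1%, each the highest of its group. This order held for unadjusted levels. With the authors' adjustment, library 4 at 0.1 mM (85.8%) stood above library 3 (85.3%) at the 271 sites, and at sites of 90% or more control library 1 (97.41%) stood above library 2 (97.38%) and 1 mM library 2 (97.49%) above library 4 (97.47%). The 3 sets of sites share the libraries, and the part of a library-wide shift in any difference between groups was not tested.

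Within narrower parts of the range, and for each kind of neighbour, the library means of the 3 groups overlapped. At 70 to under 75% (43 analysed sites) controls were at 72.3% ± 2.27, 0.1 mM at 72.1% ± 0.825 and 1 mM at 72.9% ± 0.609. At 85 to under 90% (118 sites) the values were 87.8% ± 0.605, 87.9% ± 0.571 and 87.7% ± 0.196 (SD, n = 4). At the lower end the controls ranged from 70.5% to 75.4%. Sites whose nearest neighbour was not analysed, 80 in all, were at 84.1% ± 0.648 in controls, 84.6% ± 0.659 at 0.1 mM and 84.7% ± 0.214 at 1 mM. Their groups overlapped, with controls at 83.4 to 84.9% and 1 mM at 84.4 to 84.9%.

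At 1 mM, no mostly methylated site passed the test against control. After Benjamini-Hochberg adjustment over all 2228 tested sites, edgeR called 0 of the 271, with 0% among all tested sites, and limma also called 0. With an unadjusted edgeR p under 0.05 there were 11 of the 271 sites, or 4.06%, with 4.67% among all tested sites, and limma had 10, with 4.62% among all. Of the 11, 9 were higher and 2 lower at 1 mM, or 3.32% and 0.738%, against 3.05% and 1.62% of all tested sites. The levels of the groups did not overlap at 5 of the sites (1.85%), with 1.97% of all tested sites. At 1 mM 2 of these were higher, with 1.21% among all, and 3 lower, with 0.763% among all. Neither the 4.06% nor the 1.85% stood above the share among all tested sites. The mean was higher at 137 sites and lower at 134, with a median difference of 0.058 points, against 0.037 over all tested sites.

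Large differences lay where reads were few. Group means were at least 5 points apart at 18 sites (6.64%), with 3.23% among all tested sites. The median level of the 2286 analysed sites was 95.2 to 95.7% in single libraries, above that of the mostly methylated ones, and the part of level in this share was not tested. Means were at least 10 points apart at 3 sites, with 0.494% among all tested sites, and none of the 3 had a median above 54.5 reads. At the 68 sites with a median of 1000 reads or more, the largest absolute difference was 5.49 points and the next 2.97. The 95% interval from limma lay within 10 points of 0 at 228 sites (84.1%) and within 5 points at 94 (34.7%). At the other sites a difference of 5 points was not outside the interval.

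**Figure D2:**
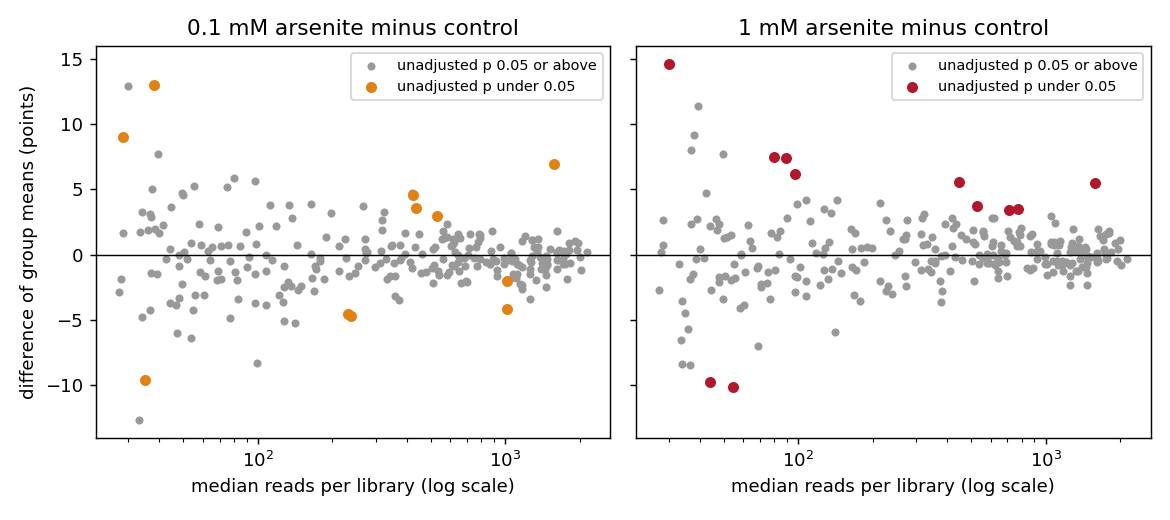
Difference of group means in points against the median reads per library (log axis) for the 271 tested sites, at 0.1 mM and at 1 mM against control; coloured points have an unadjusted edgeR p under 0.05. The cloud narrows with depth, and a single site with over 1000 reads stands out at 6.93 and 5.49 points.

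The 6 sites with the smallest p at 1 mM did not pass. The first, chromosome 1 position 1292889, had 81.9%, 85.1%, 88.2% and 86.1% in control libraries 1 to 4, 94.0%, 94.3%, 91.0% and 89.7% at 0.1 mM, and 92.7%, 94.7%, 93.7% and 82.2% at 1 mM. Every pool at 0.1 mM lay above the controls, as did 3 of the 4 at 1 mM, and 1 mM library 4 lay among the controls. The difference was 5.49 points at 1 mM (interval 0.552 to 9.81, edgeR adjusted p = 0.648) and 6.93 points at 0.1 mM (1.69 to 10.2, edgeR adjusted p = 0.187). These intervals come from limma, hold for a single site and are not adjusted for the number of sites or for the choice by small p. At both doses the call depended on the setting. Without 1 mM library 4 the difference at 1 mM was 8.37 points (edgeR adjusted p = 2.3e-05), and with the replicate number as a block it passed as well (edgeR adjusted p = 0.0474). At 0.1 mM the site passed in 4 alternative fits, with edgeR adjusted p between 0.00292 and 0.0202: a minimum of 10 reads per library, a minimum of 240 summed reads, only the 2 groups in the fit, and the replicate block. The site did not pass at 0.1 mM with limma (limma adjusted p = 0.932) or a minimum of 50 reads per library (edgeR adjusted p = 0.452). Nor did it pass there without any single library of the 2 groups (edgeR adjusted p between 0.0700 and 0.665). Both listed neighbours, at 36 and 197 bp, were poorly read, with 25 and 70 reads in all libraries together, against 18876 at the site. None of those reads was unmethylated.

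Chromosome 24 position 13609217 was higher in every exposed pool than in any control. Controls stood at 86.3%, 88.5%, 86.9% and 85.8%, the 0.1 mM pools at 90.6%, 90.2%, 89.6% and 89.1%, and the 1 mM pools at 88.8%, 89.4%, 91.3% and 93.0%. The difference was 3.74 points at 1 mM (1.15 to 6.02, edgeR adjusted p = 0.705) and 2.99 points at 0.1 mM (0.035 to 5.31, edgeR adjusted p = 0.939), and both comparisons use the same 4 controls. Its neighbours at 120 and 174 bp were more fully methylated, at 93.5% and 97.5%. The nearer one gave 93.0% ± 2.66 in controls, 93.8% ± 1.16 at 0.1 mM and 93.6% ± 1.33 at 1 mM, within the spread of replicates. The farther one gave 96.5% ± 0.368, 98.3% ± 1.70 and 97.5% ± 0.941 in the same order, higher on average at both doses as at the site itself, and did not pass at 0.1 mM (edgeR adjusted p = 0.961) or at 1 mM (edgeR adjusted p = 0.942).

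At chromosome 4 position 17905506 the controls were at 77.2%, 78.3%, 78.2% and 85.1%, the 0.1 mM pools at 84.7%, 81.3%, 77.4% and 81.7%, and the 1 mM pools at 87.0%, 85.5%, 83.1% and 85.6%. Control library 4 lay among the 1 mM pools. The 1 mM mean exceeded the control mean by 5.599 points (edgeR adjusted p = 0.798), and by 7.39 without that library. Its neighbour at 136 bp, with 62.1% over all libraries, averaged 58.7% ± 4.11 without exposure and 65.7% ± 1.78 at 1 mM (edgeR adjusted p = 0.934). At this neighbour the groups did not overlap, with controls at 53.6 to 62.4% and 1 mM at 63.3 to 67.1%. Depth was nearly equal at both sites, with medians of 447.5 and 450 reads, so these values may share fragments.

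At chromosome 1 position 4959248 the levels were 81.9%, 81.3%, 81.9% and 79.2% in controls, 81.3%, 82.4%, 83.4% and 79.3% at 0.1 mM, and 86.0%, 83.5%, 83.8% and 84.7% at 1 mM. All 4 pools at 1 mM exceeded every control, with means 3.42 points apart (edgeR adjusted p = 0.942). The nearest listed site, 319 bp away and itself mostly methylated, averaged 77.5% ± 1.08 without exposure and 79.3% ± 1.55 at 1 mM, with overlapping groups. The remaining sites of the list were shallow. Chromosome 7 position 42320430, with 25 to 208 reads per library, was at 85.1% ± 7.60 in controls and 91.4% ± 4.54 at 1 mM, and chromosome 6 position 5998137, with 53 to 120 reads, at 80.5% ± 6.53 and 88.0% ± 3.86 (SD, n = 4; edgeR adjusted p = 0.942 for both). The difference on chromosome 7, 6.21 points, was 9.82 without control library 3 and 4.01 without control library 4.

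**Figure D3:**
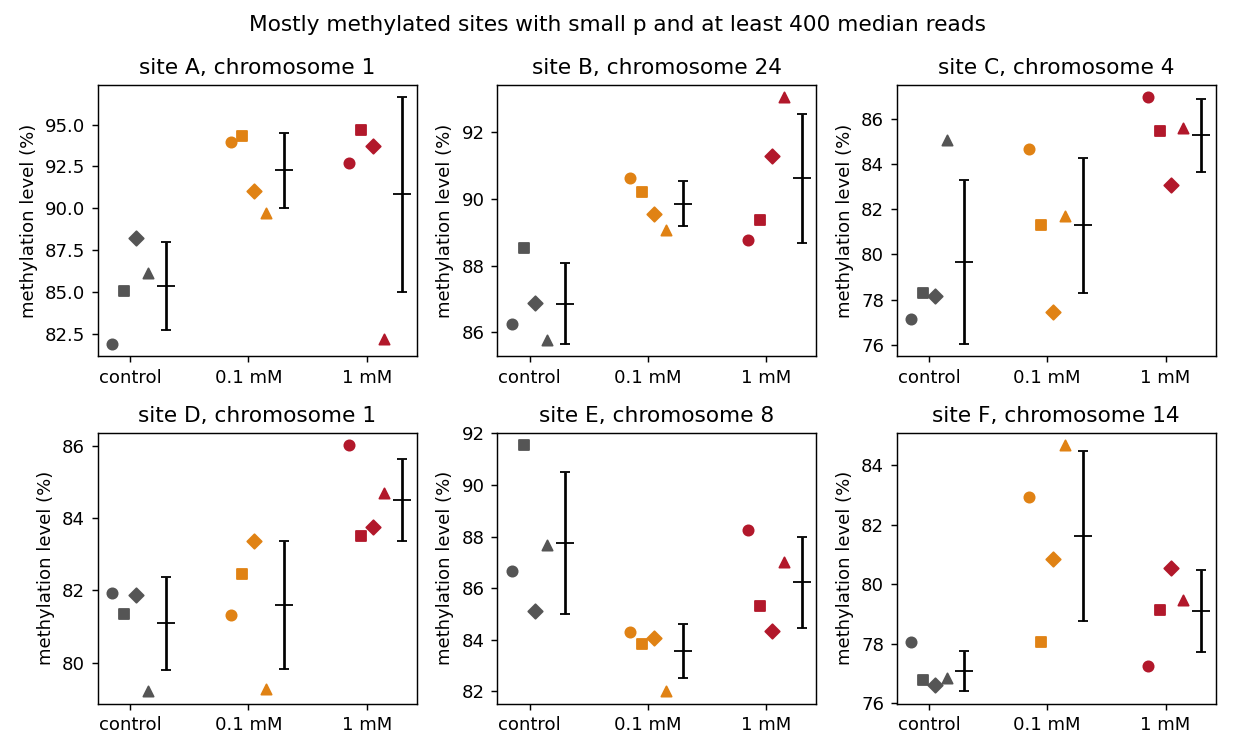
Methylation level (%) per library at 6 sites with small p and a median of at least 400 reads, with group mean and SD (n = 4); axes differ and do not start at 0. Panels A to F are chromosome 1 position 1292889, chromosome 24 position 13609217, chromosome 4 position 17905506, chromosome 1 position 4959248, chromosome 8 position 43702575 and chromosome 14 position 42667743, and in panel B all exposed pools lie above the controls.

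At 0.1 mM, again 0 of the 271 sites were called by edgeR (0% of all tested sites) and 0 by limma. Unadjusted, edgeR gave a p under 0.05 at 11 sites (4.06%, with 5.16% among all tested sites) and limma at 11 (5.07% among all). Of the edgeR sites 6 were higher and 5 lower, with 2.6% and 2.56% among all. The 2 groups were fully separated at 11 sites (4.06%), with 2.24% among all tested sites. Of these 6 were higher at 0.1 mM, with 1.35% among all, and 5 lower, with 0.898% among all. Each site counts separately here, so 2 sites that may share a fragment count as 2. The mean was higher at 116 sites and lower at 155, with a median difference of -0.351 points, against -0.00018 over all tested sites. Control library 2, the highest library at these sites, is part of each of these differences. Means were at least 5 points apart at 17 sites (6.27%, with 3.28% among all tested sites) and at least 10 points apart at 3 sites (0.404% among all tested sites), none with a median above 38 reads. As at 1 mM, the part of level in these shares was not tested.

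Beside the chromosome 1 site, the smallest p at 0.1 mM belonged to chromosome 8 position 43702575. It was at 86.7%, 91.5%, 85.1% and 87.7% in controls, at 84.3%, 83.8%, 84.1% and 82.0% at 0.1 mM, and at 88.2%, 85.3%, 84.3% and 87.0% at 1 mM. The 0.1 mM pools lay below all controls, with a mean difference of -4.202 points (interval -9.18 to -0.49, edgeR adjusted p = 0.864), while the 1 mM pools overlapped both groups. Without control library 2 the difference was -2.94 points. The neighbour at 265 bp, at 91.7% over all libraries, was at 92.7% ± 1.21 in controls, 90.2% ± 1.22 at 0.1 mM and 92.5% ± 1.19 at 1 mM.

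At chromosome 14 position 42667743 the levels were 78.1%, 76.8%, 76.6% and 76.9% in controls, 82.9%, 78.0%, 80.8% and 84.7% at 0.1 mM, and 77.2%, 79.1%, 80.5% and 79.5% at 1 mM. The 0.1 mM group exceeded the controls by 4.55 points, with library 2 just within their range (edgeR adjusted p = 0.939). Chromosome 8 position 21167269 averaged 87.6% ± 2.24 in controls and 82.9% ± 1.32 at 0.1 mM, and its neighbour at 430 bp, also mostly methylated, at 86.5% ± 2.63 and 82.0% ± 1.72. At each of the pair the 4 pools at 0.1 mM lay below the controls (edgeR adjusted p = 0.939 for both), and with medians of 239 and 231 reads the pair may share fragments. Chromosome 24 position 37774162, with 25 to 46 reads per library, was at 91.4% ± 2.04 and 81.8% ± 2.08 (SD, n = 4; edgeR adjusted p = 0.939).

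Between the doses, edgeR called 0 of the 271 sites (0% of all tested sites), as did limma. Unadjusted, edgeR gave a p under 0.05 at 5 sites (1.85%, with 4.71% among all tested sites) and limma at 8 (5.12% among all). Of the edgeR sites 3 were higher and 2 lower at 1 mM, with 3.01% and 1.71% among all. The doses were fully separated at 6 sites (2.21%), with 2.47% among all tested sites. All 6 were higher at 1 mM, with 1.71% among all in that direction and 0.763% in the other. The mean was higher at 163 sites and lower at 108, with a median difference of 0.407 points, against 0.039 over all tested sites. Means were at least 5 points apart at 25 sites (9.23%, with 3.41% among all tested sites) and at least 10 points apart at 3 (0.314% among all), none with a median above 99 reads. Most analysed sites had higher levels than these, and the part of level in these shares was not tested. Chromosome 8 position 34421018 was at 80.8%, 78.5%, 81.4% and 80.1% at 0.1 mM and 86.9%, 84.0%, 81.1% and 85.1% at 1 mM, with controls at 78.4%, 84.0%, 83.9% and 83.3%. There the groups of both doses overlapped the controls, and 1 mM library 3 lay within the 0.1 mM range (difference 4.08 points, edgeR adjusted p = 0.948). Chromosome 4 position 17905506, described above, differed by 3.99 points (edgeR adjusted p = 0.948).

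The other 4 sites with the smallest p between the doses had few reads. Chromosome 25 position 5377025, with 66 to 151 reads per library, was at 75.1% ± 5.67 at 0.1 mM and 87.4% ± 10.4 at 1 mM, where library 1, at 72.4%, lay within the 0.1 mM range. Chromosome 18 position 3461775, with 28 to 64 reads, was at 93.5% ± 5.87 and 83.3% ± 13.0. Chromosome 24 position 37456468, with 27 to 46 reads, was at 92.4% ± 4.15 and 84.1% ± 10.7, and chromosome 6 position 25967531, with 80 to 160 reads, at 81.3% ± 4.02 and 87.3% ± 2.60. The groups overlapped at all 4 (SD, n = 4; edgeR adjusted p between 0.797 and 0.948). Single libraries weighed heavily in these values. The difference of -10.2 points on chromosome 18 was -5.19 without 1 mM library 4 and -15.8 without 1 mM library 1, and that of -8.33 points at chromosome 24 position 37456468 was -3.31 without 1 mM library 2.

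The spread between replicate pools exceeded the counting error of independent reads. The SD of a site between the pools of a group had a median of 2.50 points, where the binomial SD at its level and depth had a median of 1.87. The ratio of the former to the latter had a median of 1.25 over the 271 sites, was above 1.5 at 61 sites (22.5%) and above 2 at 7. It was 1.27 at the 195 sites of 10 to under 70% and 1.11 at the 1225 sites of 90% or more. When each library's mean deviation over the 271 sites was subtracted, a step chosen after seeing the data, the median ratio was 1.19 and 46 sites were above 1.5.

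The excess was easier to see where counting error was small. In the 69 sites with fewest reads (medians of 27.5 to 97.5 per library) the SD was 5.44 points, near the 5.04 points of counting error, and the ratio was 1.10. In the 68 with most reads (1012.5 to 2135.5) the SD was 1.37 points, the counting SD 0.957 and the ratio 1.41. The ratio of a site in 1 group said little about its ratio in another, with Spearman's rho across the 271 sites of 0.128 between control and 0.1 mM, 0.020 between control and 1 mM and 0.075 between the doses. These rho values are descriptions across sites, each ratio resting on 4 libraries.

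**Figure D4:**
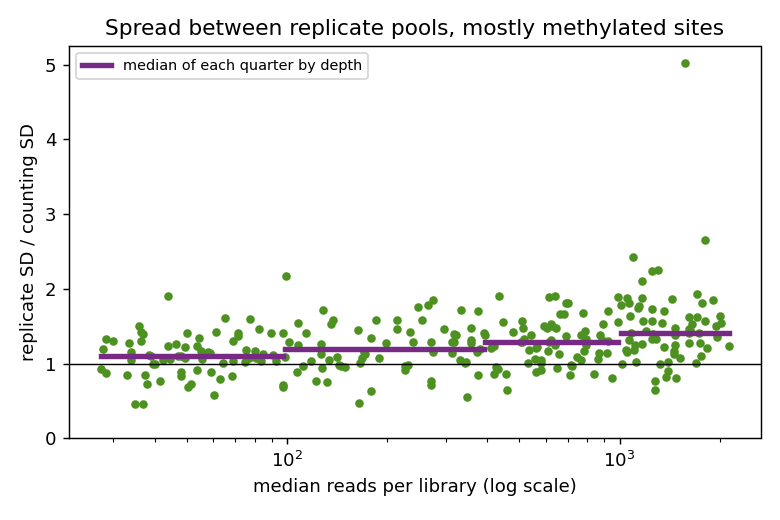
Ratio of the SD between replicate pools to the counting SD for the 271 analysed sites, against the median reads per library (log axis); the line at 1 is counting error alone and bars are medians of the sites split by depth into 4 classes of nearly equal size. Medians go from 1.10 to 1.41 with depth, and chromosome 1 position 1292889 stands at 5.02.

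Among sites with a median of at least 100 reads, chromosome 1 position 1292889 had the highest ratio, 5.02. Next came chromosome 1 position 21223286 with 2.66, at 91.3%, 88.3%, 86.9% and 86.8% in controls, 89.96%, 86.9%, 91.2% and 88.7% at 0.1 mM and 91.1%, 92.2%, 88.9% and 88.4% at 1 mM. High and low pools occurred in each group there. Chromosome 23 position 19040600 had a ratio of 2.43, with control library 2 at 76.9% and the other controls at 65.9 to 70.03%. The lowest ratios, 0.474 at chromosome 11 position 6671483, 0.555 at chromosome 17 position 38138244 and 0.630 at chromosome 18 position 31673814, belonged to sites with medians of 164.5 to 347 reads.

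The nearest neighbours of these sites lay mostly at 70% or more. For 191 of the 271 sites the nearest listed site was itself analysed. It was at 90% or more in 88 cases (46.1%), at 70 to under 90% in 73 (38.2%), at 10 to under 70% in 28 (14.7%) and under 10% in 2. High levels were common in general. Of the 2227 sites that met the conditions on reads, neighbours and chromosome 4, 1440 were at 90% or more and 323 at 70 to under 90%. Another 227 were at 10 to under 70% and 237 under 10%. The 73 neighbours at 70 to under 90% were themselves mostly methylated sites under the rule, 37 pairs in all, most of them counted from both sides. The other 118 therefore all lay outside that range, 88 at 90% or more and 30 under 70%. Their median of 94.7% leaves out neighbours at 70 to under 90%, so it is not free of the rule. Over all 191 the median level was 88.5%, and the median of the neighbour's level minus that of the site was 4.32 points, or 2.67 in pairs under 10% apart in reads. For sites of 90% or more the nearest site was at 90% or more in 83.1% of 697 cases, and for sites of 10 to under 70% it was at 10 to under 70% in 60.1% of 158. The site's own level was fixed by the choice, so this difference was not tested.

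**Figure D5:**
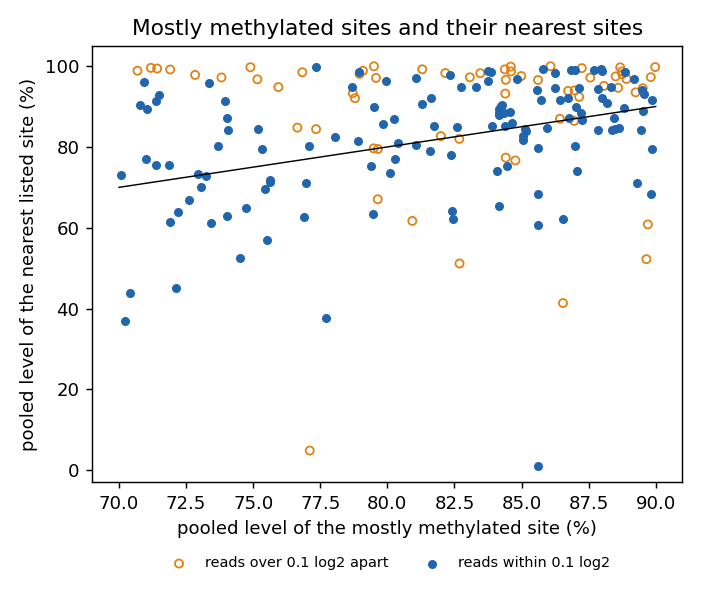
Pooled level (%) of the nearest listed site against that of the mostly methylated site, for the 191 sites with an analysed nearest site; filled points have nearly the same summed reads at both sites (within 0.1 on the log2 scale), open points do not, and the line marks equal levels. Most neighbours lie above 70%, with 2 under 10%.

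Many neighbouring sites had nearly the same number of reads. Summed reads of the site and its nearest neighbour differed by less than 0.1 on the log2 scale at 130 of the 191 sites (68.1%). In these, the depth of single libraries differed by a median of 0.0096 on the log2 scale. Values of such neighbours may share fragments and were not treated as independent. The 271 sites formed 233 runs of sites lying within 1000 bp of each other, 38 of which held more than 1. The 191 sites made up 155 distinct pairs, because both sites of a pair could be mostly methylated.

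Neighbours of nearly equal depth could differ in level. Of the 130 cases within 0.1 on the log2 scale in reads, the levels were at least 10 points apart in 53, with the neighbour higher in 30 and lower in 23. In 51 of these 53 the order was the same in all 12 libraries. The gap was taken over these same libraries, so a shared order follows largely from that choice. Over all 191 cases, levels were at least 10 points apart in 89. The widest gap was between chromosome 15 position 35196664, at 85.6%, and position 35196938, at 0.935%, which lay 274 bp away. The former was at 80.8 to 88.3% and the latter at 0.258 to 1.99% in the 12 libraries, and reads were nearly equal, 8240 and 8237. The order was the same in all 12 libraries. Chromosome 18 position 33263934, at 77.1%, had a neighbour at 177 bp with 4.84%, but reads differed, 6561 against 2667. Chromosome 11 position 44953176, at 86.5%, had one at 223 bp with 41.3%, with 7693 and 7004 reads.

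At the deepest sites the step was smaller and ran the other way, with the neighbour as the higher site. Chromosome 8 position 9064613 (86.3%) had its neighbour at 216 bp at 98.3%, with 25773 and 25738 reads. Chromosome 6 position 3520427 (83.8%), chromosome 7 position 67652532 (88.0%) and chromosome 1 position 52553907 (87.0%) had neighbours at 224 to 236 bp with 98.5%, 98.8% and 99.0% and nearly the same reads. Chromosome 11 position 21966278 and chromosome 2 position 51883511 differed from these in depth, with 24793 and 23127 reads where the nearest listed sites had 356 and 411. Of the 191 sites, 18 differed over 10-fold in reads from the nearest site.

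In 37 distinct pairs both sites were mostly methylated, so the rule had placed both in the same range. Their levels differed by a median of 3.76 points and at most by 18.3, with 25 pairs under 5 points apart and 12 at 5 points or more. The 3 closest pairs were the following. Chromosome 16 positions 283843 and 284172 were at 72.9% and 73.3% with 7483 and 7455 reads. Chromosome 19 positions 8879848 and 8879998 were at 87.3% and 86.8%, and the neighbour was the higher one in 4 of 12 libraries. Chromosome 9 position 7345274, at 79.6%, had 855 reads where its neighbour at 79.5% had 10239.

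Neighbouring sites deviated together from library to library. For each site and its nearest neighbour, the deviations of the 12 libraries from their group means were correlated, and Pearson's r had a median of 0.456 over the 191 sites, with quartiles of 0.147 and 0.685 and a value above 0 at 158. Over the 155 distinct pairs the median was 0.408, with 124 above 0. The median of Spearman's rho over the 191 sites was 0.364. The median r was 0.561 for neighbours with nearly equal reads and 0.207 for the other 61. After each library's mean deviation was subtracted, these medians were 0.449 and 0.096. By the level of the neighbour, the median r was 0.654 at 10 to under 70%, 0.577 at 70 to under 90% and 0.226 at 90% or more. These values are descriptions: the paired sites share libraries and, where depth is equal, fragments, and the part of shared fragments in r was not tested.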

How the data were processed

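DREAM (Digital Restriction Enzyme Analysis of Methylation) was run on 12 libraries, 1 per pool. The deposited columns of methylated and unmethylated reads per CCCGGG site were read in the unit of estimated counts, since their last row holds a correction factor that is not whole. That row is not a site and did not enter the fits. All site values were whole read counts and none was rounded. Methylation in the authors' files is given in percent. Their adjusted level equals the methylated share after 0.5 is added to each kind of read and the methylated reads are multiplied by a factor from the spiked standards (1.198 to 1.324), to within 0.015 points. Per the submitters' processing notes, positions refer to danRer7; an aligner is not given in the sources used here. A deposited table of adjusted levels, in percent, held 1533 sites, 179 of them mostly methylated, with values equal to those in the library files.

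Levels here are unadjusted shares of reads. Adjustment raised the mean of a mostly methylated site by a median of 2.63 points and placed 59 of the 271 at 90% or more. Standards, with the entries of each pooled, lay at 0.215 to 46.5% or at 99.1 to 99.6% in single libraries, so none fell between 70 and 90%. The first entry of the lowest standard was at 2.57% and 1.81% in 1 mM libraries 1 and 3. In the other libraries it was at most at 0.931%, and its part in the levels was not tested. A minimum of 20 reads in every library was required for testing with edgeR 4.0.16 in R 4.3.3 (a coverage term per library, a group term on methylated reads, all 12 libraries, quasi-likelihood F test, Benjamini-Hochberg adjustment over 2228 sites, threshold 0.05). The intervals came from limma 3.58.1, fitted to log2 odds after adding a pseudocount of 1. They are 95% intervals for single sites, not adjusted for the number of sites, turned into points at the mean log odds of the reference group. The edgeR and limma fits were both run on simulated counts with known changes as a check, and this is not used here as a measure of power. Other values were computed in Python 3.11.15 with scipy 1.17.1, pandas 2.3.3 and numpy 2.4.6. Reads carried no molecular identifiers, so copies of the same molecule may be counted more than once. Wilson intervals and the counting SD take each read as independent and cover counting error only. The part of such copies in the ratio of replicate to counting SD was not tested. Replicate pairs differed in depth beyond counting error (the smallest chi-square over its degrees of freedom was 7.42 among 18 pairs). The sites and the lists were chosen with earlier results of these data known. Named were the 6 sites with the smallest p per comparison, the 6 with most reads, the 3 highest and 3 lowest ratios of replicate to counting SD at a median of 100 reads or more, the 3 widest and 3 closest neighbour pairs, and the 2 sites on either side of each limit. Alternatives covered depth minimum, tool, libraries, block, membership and level scale.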

Additional observations from a re-analysis of the deposited data

Results flagged for a closer look

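In groups of 4 libraries, a library standing apart from the other 3 was looked for in the mean level and at the named sites, 99 groups in all, and was found in 3, where chance gives about 1 in 20, or 4.95. These sites were chosen partly for their differences, so that rate need not hold. At chromosome 1 position 1292889, 1 mM library 4 was at 82.2% with the others at 92.7 to 94.7%. At chromosome 4 position 17905506, control library 4 was at 85.1% with the others at 77.2 to 78.3%. At chromosome 8 position 34421018, control library 1 was at 78.4% with the others at 83.3 to 84.0%.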

How the results depend on the processing

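The count of called sites among the mostly methylated ones was 0 in each comparison, and the only site called under any alternative run was chromosome 1 position 1292889. At 0.1 mM against control the count was 1 with 10 reads per library (316 sites; edgeR adjusted p = 0.0124), with 240 reads summed (edgeR adjusted p = 0.0202), with only the 2 groups in the fit (edgeR adjusted p = 0.00292) and with the replicate block (edgeR adjusted p = 0.00376). At 1 mM against control it was 1 with the replicate block (edgeR adjusted p = 0.0474) and 0 to 1 when single libraries were left out. Between the doses it was 0 throughout. Deviations of same-numbered libraries at sites of 10 to 90% had r between -0.104 and 0.106. Those of libraries with other numbers had r between -0.162 and 0.119, and 1 of 12 libraries correlated best with its own number. Such low values show no pairing of the pools by replicate number and cannot exclude one. Of 248 alternatives at the 18 named results, 242 kept direction and side of the threshold and 6, all at that site, passed it. Leaving out single libraries gave mean differences of -0.082 to 0.643 points at 1 mM, -0.418 to 0.308 at 0.1 mM and 0.053 to 0.574 between doses, and a ratio of replicate to counting SD of 1.18 to 1.27. The neighbour's excess of 4.32 points was 5.28 with neighbours of 240 reads summed and 2.67, chosen after seeing the data, with pairs under 10% apart in reads; the cause was not tested. Depth limits sites with few reads, where 95% intervals exceed 10 points.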
